A study of Gallus gallus with 4 samples.

Results

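Phototransduction is the cascade by which rods and cones, the photoreceptors of the retina, turn light into an electrical signal. A light-activated opsin switches on transducin, transducin releases a phosphodiesterase from its inhibitory subunit, the phosphodiesterase breaks down cyclic GMP, and cyclic GMP-gated channels of the outer segment close. Arrestin then silences the opsin, and calcium-binding proteins restore cyclic GMP as calcium falls. Rods serve dim light and cones serve bright light and colour. The 2 cell types use separate genes for most of these steps, and the retina of the chick, a day-active bird, is rich in cones.

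The phototransduction cascade was described here by 10 genes, chosen by their names as subunits of transducin, phosphodiesterase and the channels, as arrestin, and as calcium sensors. The choice was made with earlier results of these data known. Of the 10 genes, 9 were measured, by 11 of the 38535 deposited probe sets and among 13051 gene measures. RCVRN, which encodes the calcium sensor recoverin, was not analysed here because no probe set was paired with that name. By their known roles, mostly from mammals, 5 measured genes were taken as cone genes (GNAT2, PDE6C, PDE6H, CNGA3 and ARR3), 2 as rod genes (PDE6B and CNGA1) and 2 as calcium sensors (GUCA1A and GUCA1B).

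Expression was measured on 4 Affymetrix chicken arrays, each of RNA from the retina, RPE and choroid of right eyes pooled from 5 Leghorn/New Hampshire chicks labelled male. The control array came from chicks raised with no lenses, and the form-deprived (FD) arrays from chicks whose right eye wore an occluder and then had 0, 6 or 24 hr of normal vision, and they are named by these hours (FD 0 hr and so on). The group labels give 7 days of form deprivation, whereas the treatment protocol and the methods give 10 days. The occluder was fitted on day 2. Age was labelled as post-hatch day 11 for control, FD 0 hr and FD 6 hr and post-hatch day 12 for FD 24 hr. The methods have the occluders removed on day 12, which does not match the labelled age of FD 0 hr and FD 6 hr. All chicks lived on 12 hr of light a day. With 1 array of pooled RNA per condition there was no replicate check and no test could be made, so that each difference compares 2 arrays and not 2 conditions, and precision is limited by the number of arrays. Below, the deprivation comparison is FD 0 hr minus control, early recovery is FD 6 hr minus FD 0 hr, late recovery is FD 24 hr minus FD 6 hr and whole recovery is FD 24 hr minus FD 0 hr.

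Values are log2 expression, on which a difference of 1 is a 2-fold change. A gene is called above the dim limit when its mean exceeded 6.28, which 60 percent of the probe set means did not. There were 6101 such genes, and 8 of the 9 measured phototransduction genes were among them. PDE6B, with a mean of 5.75, was not, so that its differences rest on weak signal. As a measure of technical spread, differences among bright probe sets of the same gene had an SD of 0.44 in the deprivation comparison, 0.30 in early recovery, 0.38 in whole recovery and 0.27 in late recovery, over 2572 genes. This SD covers probes only and holds no variation between chicks. Levels are set side by side only within a gene, because probe sets differ in their response.

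The arrays differed in ways that touch all of the values below. The gap between the 3′ and 5′ probe sets of β-actin was 3.72 on the FD 0 hr array and between 2.39 and 2.85 on the others. That of EF1α was 1.41 on the FD 0 hr array and between 1.12 and 1.30 on the others. That of GAPDH lay between 0.155 and 0.205 on all arrays, with no excess at FD 0 hr over control beyond 0.205 against 0.195. The hybridisation control bioC differed by -2.87 in early and -2.83 in whole recovery, and by -3.03 at FD 6 hr and -2.99 at FD 24 hr relative to control, but by only -0.16 in the deprivation comparison and 0.04 in late recovery. The poly-A control dap differed by 0.71 in the deprivation comparison, -2.09 in early recovery, -2.48 in whole recovery and -0.39 in late recovery. In the array names that the paper lists, FD 6 hr and FD 24 hr share a name stem. Those of control and FD 0 hr begin alike with another stem, but that of control is printed with a further digit. What these stems stand for is not stated, and their part in the differences was not tested. Signal of the labelled tissues was seen for VSX1, a bipolar cell factor (11.59 to 12.26), for RPE65, the isomerase of the pigment epithelium (12.75 to 13.32), and for the endothelial cadherin CDH5 (7.90 to 9.44). For choroid this signal was mixed, because only 6 of 12 choroid and vessel markers were above the dim limit. The other endothelial markers among them were below it. The part of RNA quality, hybridisation and tissue share in the differences was not tested. In pooled tissue, fewer cells of a type and less RNA per cell cannot be told apart.

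By HINTW and the genes of the Z chromosome, the control array went against its label of male chicks. HINTW, which lies on the W chromosome that only female birds carry, had a level of 9.36 on the control array but of 5.34 to 5.52 on the FD arrays. The other W chromosome genes above the dim limit had no such gap, at -0.23 to 0.33 in the deprivation comparison. The 269 genes of the Z chromosome above the dim limit had medians of 0.46, 0.445 and 0.35 for the FD arrays relative to control, after 0, 6 and 24 hr of recovery. Among the FD arrays the medians of these genes lay between -0.17 and -0.05. Sex of the pool cannot be told apart from form deprivation in any difference from control, whereas early, late and whole recovery do not use the control array.

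GNAT2 encodes the alpha subunit of cone transducin, which carries the signal from the opsin to the phosphodiesterase. Its log2 level was 12.37 on the control array and 12.16, 12.56 and 12.44 after 0, 6 and 24 hr of recovery. The range of 0.40 was the narrowest of the 9 genes. The lowest array was FD 0 hr, 1.16-fold below control, and the difference of -0.21 was smaller than the SD between probe sets.

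PDE6C and PDE6H encode the catalytic and the inhibitory subunit of the cone phosphodiesterase. PDE6C stood at 10.62 for control and at 11.41, 10.87 and 11.27 after 0, 6 and 24 hr of recovery. It was therefore lowest in control and 1.73-fold higher at the end of form deprivation, the largest excess over control at FD 0 hr among the 9 genes. PDE6H stood at 10.79, 10.97, 10.42 and 11.56 in the same order of arrays. Its lowest value was at FD 6 hr and its highest at FD 24 hr, 2.20-fold apart. In early recovery both subunits were lower, PDE6C at -0.54 and PDE6H at -0.55, and in late recovery both were higher, at 0.40 and 1.14. These comparisons share the FD 6 hr array with opposite signs, so that a low value on that array alone would give both differences.

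The phosphodiesterase subunit of rods, PDE6B, stood at 5.87 for control and at 5.27, 5.44 and 6.40 on the FD arrays in order of recovery. Only at FD 24 hr was it above the dim limit. RefSeq (GRCg7b) places PDE6B on the Z chromosome. Relative to control it was at -0.60, -0.43 and 0.53 after 0, 6 and 24 hr of recovery, beside the positive medians of that chromosome's genes in all of these comparisons.

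The channel genes of the 2 photoreceptor types ran in unlike orders. CNGA3, the alpha subunit of the cone channel, stood at 8.50 for control and at 8.51, 8.26 and 8.98 on the FD arrays in order of recovery. Its control and FD 0 hr values were nearly equal, and FD 24 hr was the highest array. CNGA1, the alpha subunit of the rod channel, stood at 6.89, 7.38, 7.64 and 7.12. It was lowest in control and highest at FD 6 hr, the array on which CNGA3 was lowest. In late recovery the differences were 0.72 for CNGA3 and -0.52 for CNGA1.

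ARR3 encodes cone arrestin, which binds phosphorylated cone opsins and ends their signal. Its brighter probe set stood at 12.61 for control and at 10.78, 11.18 and 12.26 after 0, 6 and 24 hr of recovery. Its dimmer probe set stood at 7.46, 6.99, 7.18 and 7.58. Both were lowest at FD 0 hr and next lowest at FD 6 hr, but the size differed, with the deprivation comparison at -1.83 for the brighter and -0.47 for the dimmer. The gene value, the median of both, was at -1.15, which is 2.22-fold lower than control.

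GUCA1A and GUCA1B encode the proteins GCAP1 and GCAP2, which activate guanylate cyclase when calcium is low and so help to restore cyclic GMP after light. The genes are direct neighbours on chromosome 26 in RefSeq, with 0 genes between them. The probe sets of GUCA1A stood at 11.70, 11.33, 11.52 and 12.08 and at 9.76, 8.64, 9.25 and 10.21 in the order of control and then hours of recovery. Both probe sets gave the same order, with FD 0 hr lowest and FD 24 hr highest, and with -0.37 and -1.12 in the deprivation comparison. GUCA1B stood at 7.16 for control and at 6.45, 7.13 and 6.75 on the FD arrays in order of recovery. It too was lowest at FD 0 hr, but its FD 6 hr value was within 0.03 of control and its FD 24 hr value below both.

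**Figure D1:**
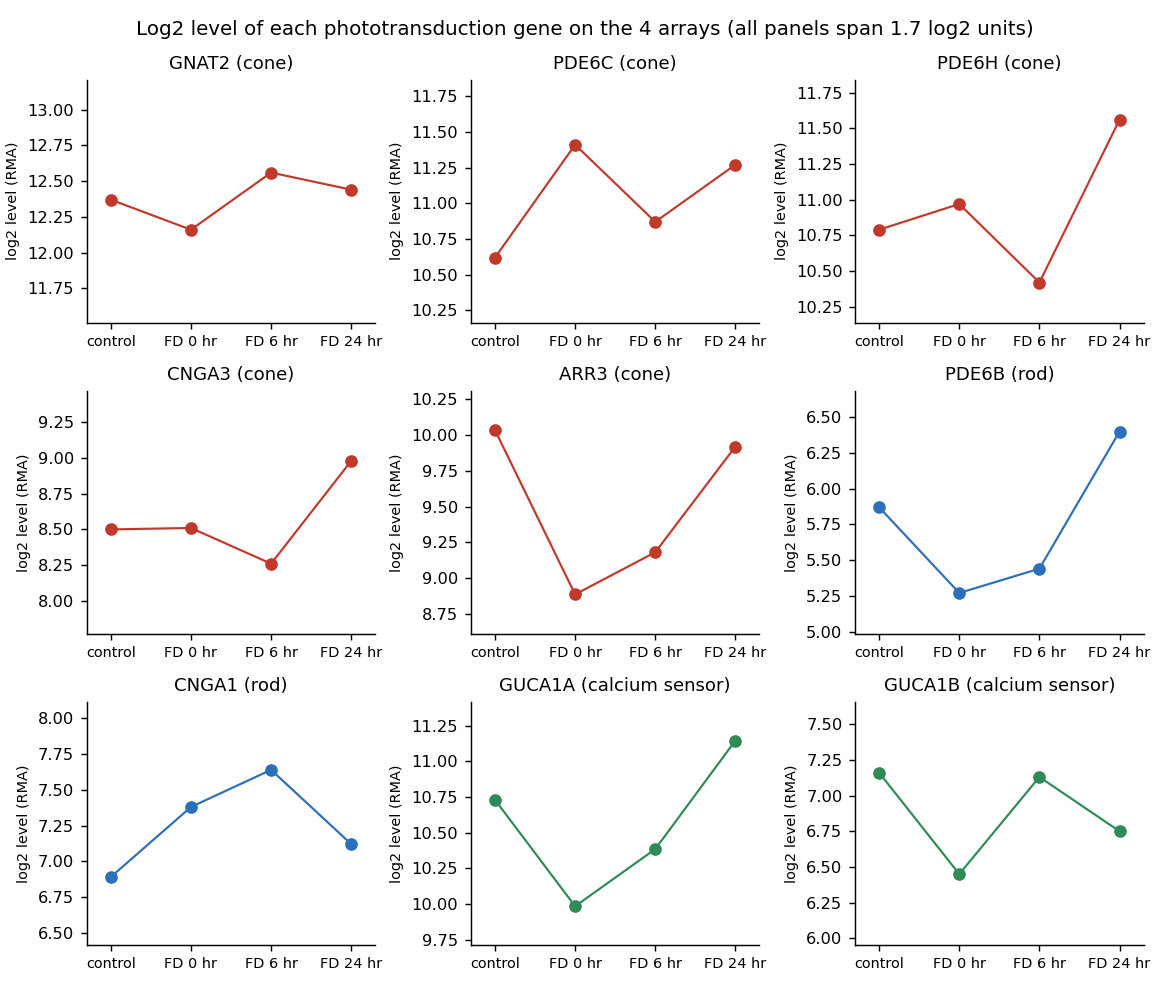
Log2 level (RMA) of the 9 measured phototransduction genes on the control array and the FD arrays in order of recovery, 1 point per array of pooled RNA, with lines drawn only to guide the eye and no error bars because each condition has 1 array. ARR3 and GUCA1A are medians of 2 probe sets; ARR3, GUCA1A, GUCA1B, GNAT2 and PDE6B are lowest at FD 0 hr, whereas PDE6C is highest there at 11.41.

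At the end of form deprivation the phototransduction genes did not share a direction. In the deprivation comparison 4 of the 9 were higher and 5 lower, with a median log2 difference of -0.21 against 0.00 over all 13051 genes. The range ran from -1.15 for ARR3 to 0.79 for PDE6C, and both of these are cone genes. Only ARR3 differed by 1 or more. That is 1 of 9 genes, where 4.87% of all genes and 9.15% of the genes above the dim limit differed by that much, so that the count stands near the background. Among the 6101 genes above the dim limit, 3.07% were at least as far below control as ARR3 and 8.10% at least as far above it as PDE6C. The calcium sensors GUCA1A and GUCA1B were at -0.745 and -0.71, beyond the SD between probe sets, but the brighter probe set of GUCA1A, at -0.37, was within it. GNAT2, PDE6H and CNGA3 lay within it.

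Over the first 6 hr of restored vision the genes again differed in direction. In early recovery 6 of the 9 genes were higher and 3 lower, with a median of 0.26 against 0.00 over all genes. None of the 9 differed by 1 or more, where 0.743% of all genes and 1.29% of those above the dim limit did. The genes that were lower were the cone genes PDE6C, PDE6H and CNGA3, at -0.54, -0.55 and -0.25. GUCA1B was furthest up, at 0.68, followed by GNAT2 and GUCA1A, each at 0.40. Of the 6101 genes above the dim limit, 3.05% were at least as high as GUCA1B, 3.70% at least as low as PDE6H and 3.93% at least as low as PDE6C. These 3 genes, GNAT2 and GUCA1A exceeded the SD between probe sets, but the brighter probe set of GUCA1A, at 0.19, did not. Early recovery, whole recovery and the differences of FD 6 hr and FD 24 hr from control all pair arrays with unlike hybridisation controls.

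In late recovery, between the arrays with the most alike hybridisation controls, the cone genes were mostly higher. Of the 5 cone genes 4 were higher, with a median of 0.72 against -0.01 over all genes. PDE6H was at 1.14, ARR3 at 0.74, CNGA3 at 0.72, PDE6C at 0.40 and GNAT2 at -0.12. The calcium sensor GUCA1A was at 0.76, and its 2 probe sets were at 0.56 and 0.96. The probe sets of ARR3 were at 1.08 for the brighter and 0.40 for the dimmer. By gene value only PDE6H passed 1, which is 1 of 9 genes against 0.667% of all genes and 1.25% of those above the dim limit. By the brightest probe set ARR3 passed it too, beside 120 genes above the dim limit (76 by the median). The number of genes above the dim limit by that rule was not counted, so that no share stands beside this call. Few genes were further up: 9 of the 6101 genes were at least as high as PDE6H, 63 at least as high as GUCA1A, 70 as ARR3 and 76 as CNGA3, each count including the gene itself. By gene value these 4 genes therefore lay within the highest 1.25% of the genes above the dim limit. Single probe sets did not all reach that far. The dimmer one of ARR3, at 0.40, and the brighter one of GUCA1A, at 0.56, were below CNGA3. Early and late recovery share the FD 6 hr array with opposite signs, so that a low value on it alone would raise late recovery. PDE6H and CNGA3 were lowest on that array and at only 0.59 and 0.47 in whole recovery. ARR3 and GUCA1A were lowest at FD 0 hr and at 1.035 and 1.16 in whole recovery. The rod genes stood apart from each other, with the dim PDE6B at 0.96 and CNGA1 at -0.52, and GUCA1B was at -0.38. The FD 24 hr chicks were also a day older than the FD 6 hr chicks, which cannot be told apart from recovery. No clock time of collection is given in the sources used here, so that the part of time of day was not tested.

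**Figure D2:**
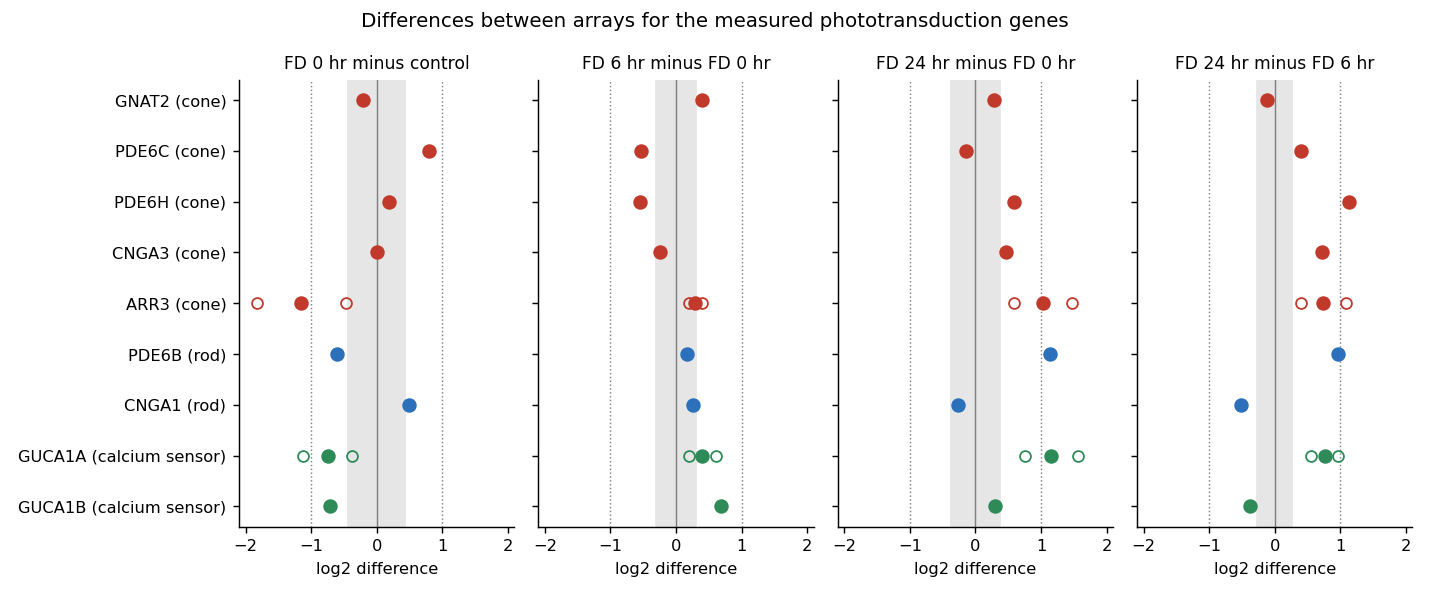
Log2 differences between arrays for the 9 genes in 4 comparisons, with filled points for the gene value, open points for the single probe sets of ARR3 and GUCA1A, dotted lines at -1 and 1, and a grey band of 1 SD between probe sets of a gene on either side of 0. In late recovery the cone genes other than GNAT2 lie to the right of the band, with PDE6H at 1.14.

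Over the whole 24 hr, 7 of the 9 genes were higher than at FD 0 hr and 2 were lower, with a median of 0.47 against -0.01 over all genes. GUCA1A was 2.23-fold higher with a log2 difference of 1.16, ARR3 2.05-fold higher with 1.035 and the dim PDE6B 2.19-fold higher with 1.13. These are 3 of 9 genes, where 2.25% of all genes and 4.18% of those above the dim limit differed by 1 or more. Without PDE6B they are 2 of 8. PDE6H was at 0.59, CNGA3 at 0.47, GUCA1B at 0.30 and GNAT2 at 0.28, while PDE6C was at -0.14 and CNGA1 at -0.26. This comparison and the deprivation comparison share the FD 0 hr array, which enters them with opposite signs, so that a low value on that array alone would give a negative and then a positive difference. By its brighter probe set GUCA1A was at 0.75, under the limit of 1, and ARR3 at 1.48.

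Differences from control that do not use the FD 0 hr array were -0.855 at FD 6 hr and -0.115 at FD 24 hr for ARR3. Its brighter probe set was at -1.43 and -0.35 and its dimmer one at -0.28 and 0.12. GUCA1A was at -0.345 and then 0.415 in these comparisons, and CNGA1 at 0.75 and then 0.23. At FD 24 hr, PDE6H was 1.71-fold above control with a log2 difference of 0.77, PDE6C 1.57-fold with 0.65 and CNGA3 1.39-fold with 0.48. GUCA1B was at -0.41. By gene value none of the 9 genes differed from control by 1 or more at FD 6 hr, where 1.66% of all genes and 3% of those above the dim limit did. By the brightest probe set 1 of 9, ARR3, did, beside 266 genes above the dim limit (183 by the median). As in late recovery, no share by that rule was counted, so that this call has no background beside it. At FD 24 hr none of the 9 genes differed from control by 1 or more, against 1.33% and 2.41% by gene value.

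**Figure D3:**
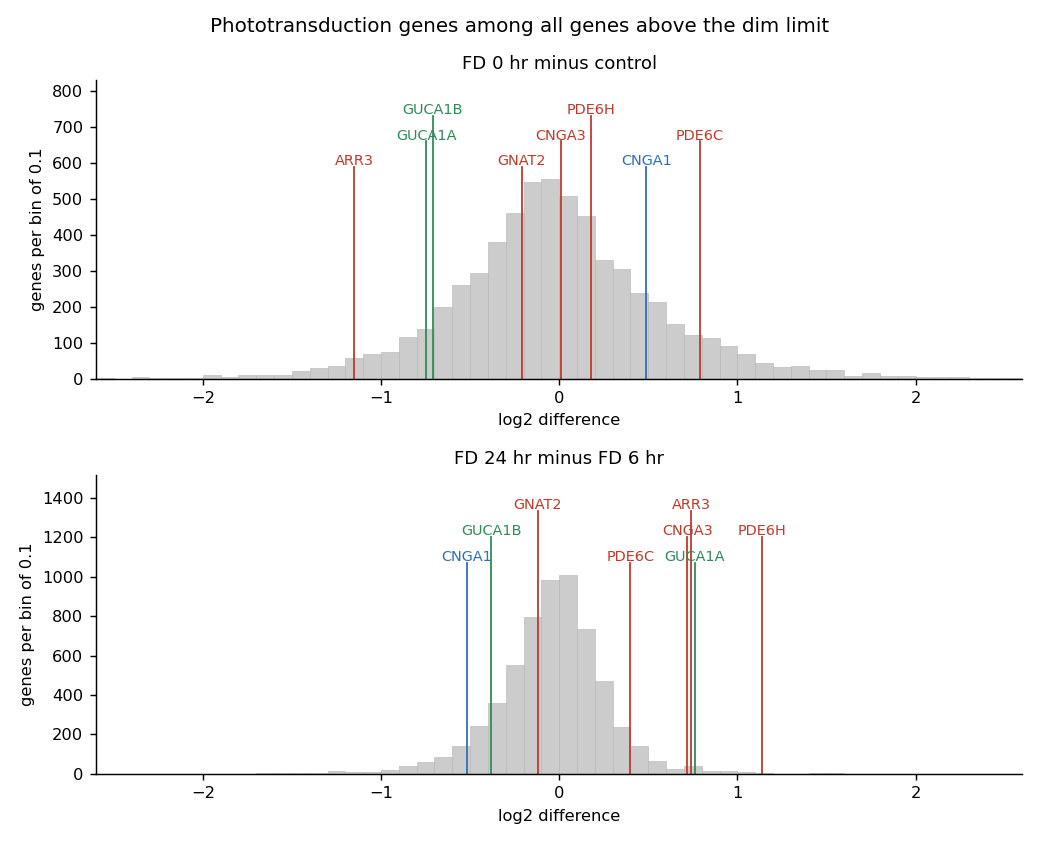
Number of genes per bin of 0.1 in log2 difference for the 6101 genes above the dim limit, in the deprivation comparison and late recovery, with lines for the 8 phototransduction genes among them (red cone, blue rod, green calcium sensor). The genes lie on either side of the centre in the upper panel, from -1.15 to 0.79. In the lower panel GUCA1A, ARR3, CNGA3 and PDE6H lie in the right tail by gene value, at 0.72 to 1.14.

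Cone and rod genes were then set side by side. The medians in the deprivation comparison were 0.01 over 5 cone genes and -0.055 over 2 rod genes, in early recovery -0.25 and 0.215, in late recovery 0.72 and 0.22, and in whole recovery 0.47 and 0.435. Relative to control they were -0.24 and 0.16 at FD 6 hr and 0.48 and 0.38 at FD 24 hr. The 2 rod genes were both higher in early recovery, at 0.17 and 0.26, and at FD 24 hr relative to control, and had opposite signs in the other 4 comparisons. Within the cone genes the spread from lowest to highest was 1.94 in the deprivation comparison and 1.26 in late recovery. At FD 0 hr PDE6C, PDE6H and CNGA3 were at or above their control values, while ARR3 and GNAT2 were below.

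The cone members' median profile over the 4 arrays, after subtraction of each gene's mean, was lowest at FD 6 hr (-0.30) and highest at FD 24 hr (0.42). CNGA3 was all but equal to it, at a Euclidean distance of 0.0022. This closeness was built in, because CNGA3 was itself the middle cone gene on the control, FD 0 hr and FD 6 hr arrays. The other cone genes lay at 0.32 for PDE6H to 0.82 for ARR3, so that the profile described CNGA3 more than the cone genes as a group. The nearest other genes were RPL9, a ribosomal protein, at 0.042, PRIMA1, which anchors acetylcholinesterase in membranes, at 0.11, TIA1, an RNA-binding protein, at 0.12, GRIP1, a scaffold of glutamate receptors, at 0.13 and TLL1, a metalloproteinase, at 0.15. The median profile of the rod members stood at 0.65 from either of them and so described neither. Its nearest genes were LOC101750993, RLF, ACADL, BSPRY and RIPPLY1, at 0.013 to 0.041.

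Other genes of the cascade were counted from lists of their names. Of 5 further cone genes, 4 were lower in the deprivation comparison and 4 were higher in late recovery, with medians of -0.54 and 0.27. CNGB3, the beta subunit of the cone channel, stood at 6.88 for control and at 5.88, 6.79 and 7.47 after 0, 6 and 24 hr of recovery. Its low value at FD 0 hr had no counterpart in the alpha subunit CNGA3, but it lay below the dim limit and came from 1 probe set. GRK7, a kinase of cone opsins, stood at 8.95, 9.02, 8.54 and 9.62 and thus had the same order of arrays as PDE6H and CNGA3. SLC24A2, the calcium exchanger of cones, which lies on the Z chromosome, stood at 10.97, 10.43, 10.91 and 11.18. GNB3, the beta subunit of cone transducin, stood at 13.62 for control and 13.35 at FD 0 hr on its brighter probe set and at 11.41 and 10.41 on the other. In late recovery its brighter probe set was at -0.13 and the other at 0.41, so that GNB3 counted as higher only through the dimmer one. GNGT2, the gene not higher in late recovery, was at -0.07.

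Of 8 further rod genes 5 were measured. Of these, 3 were above the dim limit, and GNAT1 and CNGB1 were not. In the deprivation comparison 4 of the 5 were lower and 1 was higher, and the median was -0.09. Only PDE6G, at -0.785, exceeded the SD between probe sets of 0.44, while CNGB1 was at -0.05. PDE6G, the inhibitory subunit of the rod phosphodiesterase, stood at 11.90, 10.99, 11.88 and 12.04 by its brighter probe set, and both of its probe sets were lowest at FD 0 hr. In late recovery 2 of the 5 measured genes were higher and 3 lower, with a median of -0.055. PDE6G was higher there on both probe sets, at 0.16 for the brighter and 0.47 for the other. SLC24A1, the calcium exchanger of rods, was measured by 1 probe set and stood at 9.40, 9.75, 9.97 and 8.40. Its difference of -1.57 in late recovery was the lowest of the rod genes. GNAT1, the alpha subunit of rod transducin, stood between 5.76 and 5.87 on the 4 arrays, below the dim limit. SAG, the rod arrestin, differed by -0.22 and -0.08 in the deprivation comparison on its 2 probe sets, where its cone counterpart ARR3 differed by -1.83 and -0.47.

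Genes that both photoreceptor types use were near 0 as a group. Of 9 listed 7 were measured, with a median of 0.02 in the deprivation comparison and -0.05 in late recovery. PDC, which encodes the transducin-binding phosducin, was at 11.23 in control and between 11.75 and 11.80 on the FD arrays. RGS9BP, the membrane anchor of the RGS9 complex that shuts transducin off, stood at 12.08, 12.37, 11.87 and 12.35. Its order of arrays was lowest at FD 6 hr, as for PDE6H, CNGA3 and GRK7.

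The receptors at the head of the cascade showed wider differences than the cascade genes in the deprivation comparison, by gene value. Of 5 listed opsins 2 were measured. The red cone opsin OPN1LW stood at 13.37 for control and at 11.06, 12.66 and 11.91 on the FD arrays, and the blue cone opsin OPN2SW at 11.86, 10.14, 10.99 and 11.31. Both were lowest at FD 0 hr, as was ARR3, but OPN1LW was at -0.75 in late recovery, where PDE6H, CNGA3, ARR3 and GUCA1A were higher.

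Genes of photoreceptor structure and of photoreceptor transcription were set beside the cascade. Of 14 measured genes of structure and trafficking 9 were lower and 5 higher in the deprivation comparison, with a median of -0.135. Their furthest values were UNC119, a carrier of transducin, at -1.37 and PRPH2L, a tetraspanin related to peripherin of the outer segment disks, at 1.35. Of 8 measured transcription factors 7 were lower, with a median of -0.555. MAFA, a factor of avian rods, was at -1.26 and NEUROD1 at -1.22. In late recovery the medians of the 2 lists were -0.04 and 0.0975, so that neither had a median near that of the cone genes.

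Markers of other cells moved in the same comparisons. The 11 measured markers of amacrine and horizontal cells had 9 lower in the deprivation comparison, with a mean log2 level of 8.19 for control and of 7.48, 7.82 and 8.07 on the FD arrays. The 8 markers of ganglion cells had 7 lower, with mean levels of 9.10, 8.29, 8.62 and 8.99. TFAP2B, a transcription factor of amacrine cells, was at -2.40 and NEFM, a neurofilament, at -1.82. In late recovery, all 8 ganglion cell markers were higher, with a median of 0.31. Of 8 Mueller glia markers 7 were lower in the deprivation comparison (median -0.315), and 4 bipolar cell markers were split evenly (median 0.05). The 11 pigment epithelium markers had mean levels of 9.08, 9.09, 9.07 and 8.89 and the 12 choroid and vessel markers of 6.86, 7.05, 6.90 and 6.75. In late recovery 9 of 11 and 9 of 12 of these were lower (medians -0.22 and -0.10), as were 7 of 8 Mueller glia markers (median -0.235), while 9 of 11 amacrine and horizontal cell markers were higher (median 0.15), as the cone genes mostly were. The part of tissue share in the values of the cascade was not tested.

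**Figure D4:**
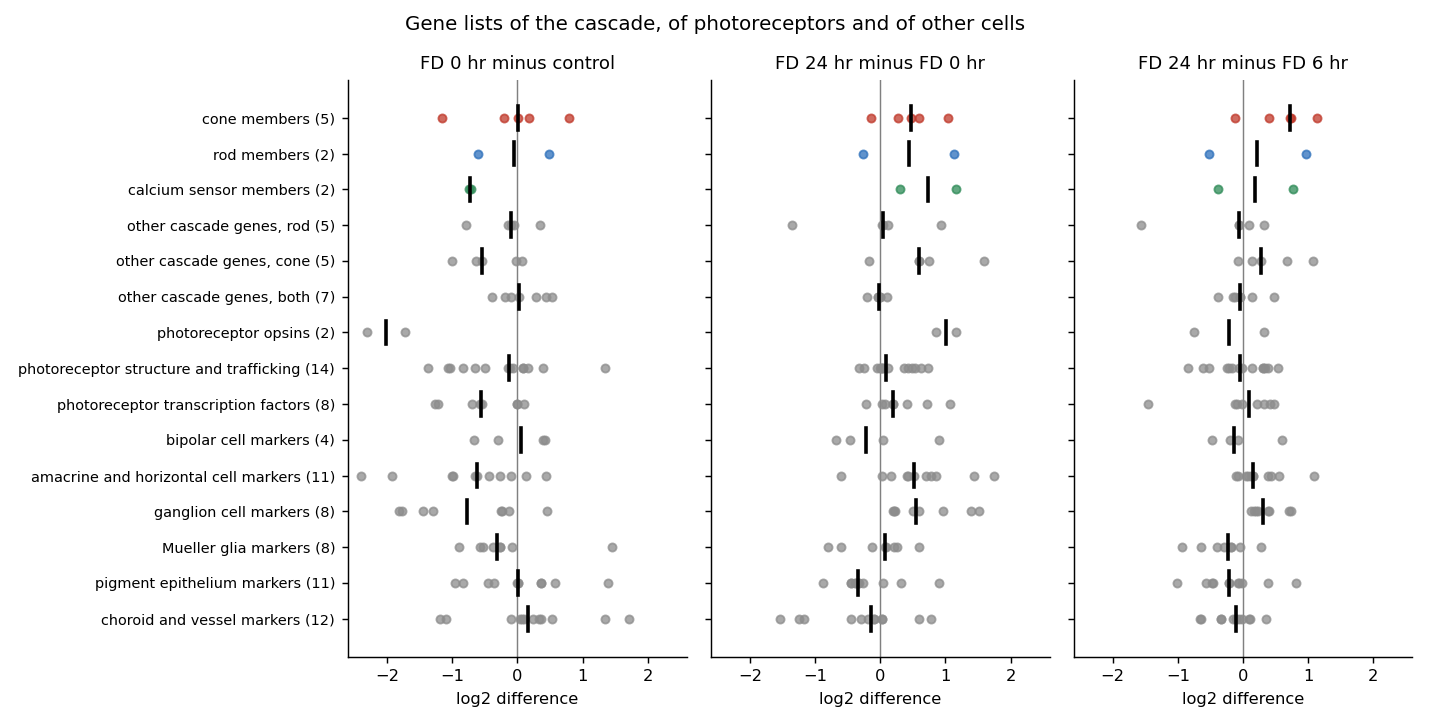
Log2 differences of single genes (points) and their median (black bars) for the cascade genes, photoreceptor lists and cell type markers in 3 comparisons, with the number of genes measured in brackets. The cone members have a median of 0.01 in the deprivation comparison and 0.72 in late recovery, and the ganglion cell markers of -0.77 and 0.31.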

How the data were processed

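The deposited values are log2 expression with 2 decimals, 1 value per probe set, which the authors made with Affymetrix Expression Console and RMA. The submitters' processing notes also name MAS5. Array medians lay between 5.73 and 5.74, and the values were used as they stand. Per the methods, the arrays were pre-processed alone and jointly with those of another study, and the joint values were presented. Which of these runs the deposited values come from is not given in the sources used here, and with a joint run they would depend on the other arrays too. The methods also state that pre-processing was rerun with the β-actin housekeeping probe sets masked, because their signal was above threshold. The paper calls β-actin unreliable as a housekeeping gene. The deposited values still hold the β-actin probe sets whose gap is given above.

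The platform's annotation, by which probe sets were named, gave 1 gene for 27178 probe sets, several for 177 and none for 11180. A gene's value was the median of its probe sets. RefSeq (GRCg7b) gave names, chromosomes and neighbours only. The rule for named genes took all 10 listed genes, opsins and other cascade genes, up to 3 genes of a marker list with the largest deprivation differences, and the 5 genes above the dim limit nearest to the cone and rod median profiles. RPE65 was named outside it after its values were seen. Members and lists were chosen with earlier results of these data known. No p-value was computed. Alternatives were quantile normalisation, centring, other choices of probe sets and other limits, and, chosen after seeing the data, leaving out the Z chromosome. The counting was run on simulated data with shifts planted well past the limit for a call. That run checked the code only and says nothing on how reliable the differences are. Python 3.11.15, NumPy 2.4.6, pandas 2.3.3 and Matplotlib 3.10.9 were used.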

Additional observations from a re-analysis of the deposited data

How the results depend on the processing

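No single member changed its sign in any comparison under quantile normalisation, centring or leaving out the Z chromosome. Nor did any by averaging of probe sets, use of the brightest alone, or without probe sets named _x_at, _s_at or _a_at. Most of these settings could hardly change a sign. Only ARR3 and GUCA1A had more than 1 probe set, and the mean of 2 equals their median. Centring hardly moved any value, and leaving out the Z chromosome removed PDE6B and altered no other member. Beyond quantile normalisation, the signs were therefore put to a test only for ARR3 and GUCA1A, by the brightest probe set. Dropping the named probe sets altered GUCA1A only. With a limit of 0.58 in place of 1, 5 of the 9 members were counted in the deprivation comparison, 1 in early recovery, 5 in late recovery, 2 at FD 6 hr relative to control and 2 at FD 24 hr relative to control. With a limit of 1.5 the count was 0 in the deprivation comparison, in whole recovery and in late recovery. The share of all genes past 0.58 or 1.5 was not counted. These member counts therefore have no background beside them and are not a result about the members. By the brightest probe set, ARR3 was at -1.83 in the deprivation comparison, 1.08 in late recovery and -1.43 for FD 6 hr minus control. Thus 2 members were counted in late recovery and 1 for FD 6 hr minus control. The share of genes by that rule was not counted, so that these counts too have no background beside them. Without the Z chromosome, and so without PDE6B, the rod value is that of CNGA1 alone, at 0.49 in the deprivation comparison, -0.26 in whole recovery, -0.52 in late recovery and 0.75 for FD 6 hr minus control. Counts of all genes above the dim limit became 897 in the deprivation comparison (558 by the median), 400 in whole recovery (255) and 120 in late recovery (76) by the brightest probe set, and 52 in early recovery (79) without the _x_at, _s_at and _a_at probe sets. For the gene counts the cause was not tested. No paired analysis was possible because each group had 1 array, and for the same reason no array could be left out of its group. Signal near the background limits PDE6B.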
